A study of Homo sapiens with 6 samples.

Results

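The 9 genes described here encode transcription factors of epithelial cells: the grainyhead-like factors GRHL1, GRHL2 and GRHL3, the OVO-like zinc finger factors OVOL1 and OVOL2, the epithelial ETS factors ELF3 and EHF, and the Krüppel-like factors KLF4 and KLF5. They were chosen by symbol from the 21293 genes of the table by a rule that uses no measured value, and all 9 symbols were present. Expression was measured by sequencing polyadenylated RNA of H2087-LCC, a latency competent population selected in mice from the human lung adenocarcinoma (LUAD) line H2087, which carries a RAS mutation. The cells, cultured in low-serum medium, fell into 3 groups of 2 libraries each: incubated for 3 days with SB505124 (SB), which blocks signalling by the type I TGFβ receptor, for 3 days with TGFβ, or for 7 days with TGFβ. The model is 1 selected line in culture, and a figure legend of the study describes its normalized read counts from this sequencing as technical replicates, so that the spread between them may not include the variation between separate cultures. There was no SB group at 7 days, so that in the comparison of 7 days of TGFβ with SB the treatment and the time in culture cannot be told apart.

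Grainyhead-like factors bind the regulatory DNA of junction and barrier genes such as CDH1, which encodes E-cadherin, and keep these genes active in simple and stratified epithelia. OVOL factors are repressors that silence ZEB1 and other mesenchymal regulators, while ZEB and SNAIL proteins in turn repress epithelial genes through E-box motifs. ELF3 and EHF activate genes of differentiated glandular and airway epithelium, and KLF4 and KLF5 bind GC-rich and CACCC motifs and act in differentiation and in proliferation, respectively, in many epithelia. TGFβ is a classical inducer of the epithelial-mesenchymal transition, during which factors of these families commonly lose expression.

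All values are normalized counts, the reads of a gene scaled by the authors to make the libraries comparable and rounded to whole numbers. The low values of the libraries corresponded to an estimated 32004401 to 39958883 assigned reads each, with 1 read worth 0.896 to 1.10 normalized counts. Of the 9 genes, 5 had a mean of at least 10 over the 6 libraries and were tested, as were 14395 of all genes: GRHL1, GRHL3, ELF3, KLF4 and KLF5. The response to TGFβ was present in the libraries, as 6 of 6 known TGFβ target genes were higher than in SB at both times, with log2 fold changes between 2.42 and 6.42. The lineage was checked with 6 epithelial markers, all expressed, of which 3 were lower and 1 higher than in SB at each time (2 lower at 3 days without SB replicate 2). Of 6 lung markers 5 were tested: all 5 were lower than in SB at 3 days, and 4 were lower and 1 higher at 7 days (SOX9, not past the threshold without SB replicate 1 or TGFβ 7-day replicate 2). Over all tested genes 14.0% were lower and 14.9% higher than in SB at 3 days, and 26.9% and 27.7% at 7 days. Among the lung markers, NAPSA had 99 and 234 in SB and 5 to 9 with TGFβ. SCGB3A2 had 414 and 642 in SB and at most 15 with TGFβ. Both reached the filter through their SB libraries, so that their lower values were favoured by the filter. Most defining markers of blood and stromal cells were at or near 0 (HBB and LUM 0 in every library, DCN at most 1, PTPRC at most 4, CD3E at most 1). Of the 9 markers of other cell types only the endothelial gene PECAM1 reached the filter, at 36 to 67 normalized counts. PECAM1 was higher than in SB by 0.72 on the log2 scale at 3 days (adjusted p = 0.0391), a call lost without SB replicate 2 or either 3-day or 7-day TGFβ library (adjusted p between 0.0656 and 0.179). The endothelial gene CDH5 had 14 and 20 in SB and at most 5 with TGFβ, and the endothelial gene VWF 7 and 13 in SB and at most 6 with TGFβ. CD14, a marker of blood cells, had at most 8 in any library. The part of these markers in the results was not tested.

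The SB libraries resembled each other less than those of the other groups. Among 11389 genes with higher counts, 86 differed by more than 1 on the log2 scale between the 2 SB libraries, against 2 between the 3-day and 4 between the 7-day TGFβ libraries. ELF3 was one of them, 3.23-fold higher in SB replicate 2 than in replicate 1, and so was the surfactant gene SFTPB, 7.49-fold higher in replicate 2. The same ratio was at most 1.13 for GRHL1, GRHL3, KLF4 and KLF5. For ELF3, KLF4, KLF5 and SPDEF, and for the counts of calls by list, values without one SB library are therefore given where they differ.

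The 9 genes spanned a wide range of levels. Per kilobase of the canonical transcript and averaged over the SB libraries, the levels were 926 normalized counts for ELF3, 822 for KLF4, 387 for KLF5, 81.3 for GRHL1, 37.2 for GRHL3, 5.69 for OVOL2, 1.57 for EHF, 0.478 for GRHL2 and 0.167 for OVOL1. The first places of this order were not separated, since the SB libraries ranged from 438 to 1414 per kilobase for ELF3 and from 791 to 852 for KLF4. The libraries of EHF (0.556 and 2.59) and of GRHL2 (0 and 0.956) overlapped as well, as did those of GRHL2 and OVOL1 (0 and 0.335). After 3 days of TGFβ the order per kilobase was KLF4 (1013), KLF5 (475), GRHL1 (41.6), ELF3 (22.1) and GRHL3 (5.47), and after 7 days KLF4 (671), KLF5 (284), ELF3 (39.0), GRHL1 (23.8) and GRHL3 (4.06), with no overlap between the libraries of neighbouring genes in either list. ELF3 thus stood beside KLF4 in SB and beside GRHL1 in both TGFβ groups.

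**Figure D1:**
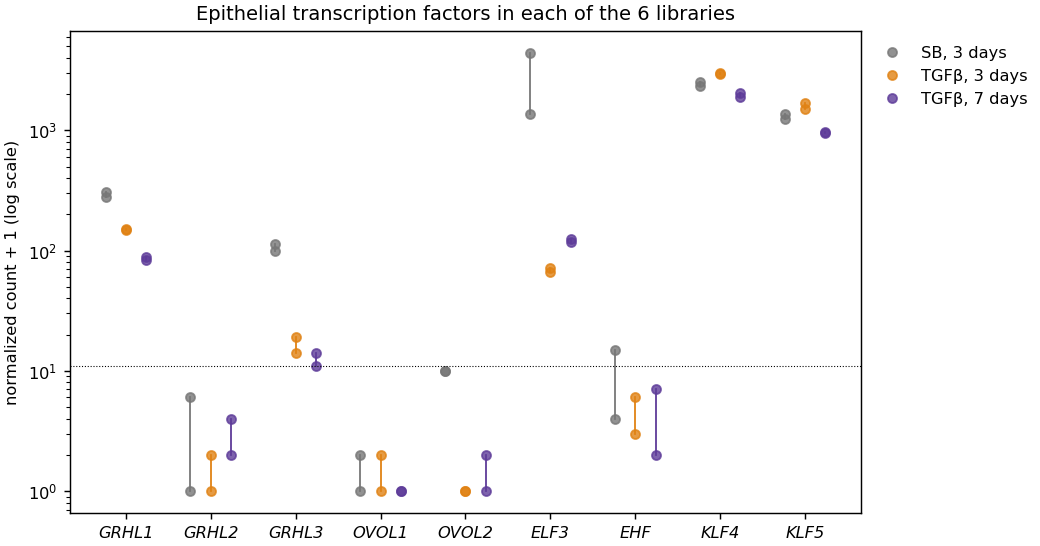
Normalized count plus 1 on a log axis for each of the 9 genes in each library, with the 2 libraries of a group joined by a line and the dotted line at a count of 10. ELF3 fell from 1359 and 4388 in SB to between 66 and 124 with TGFβ, GRHL1 and GRHL3 were lower in each TGFβ library than in each SB library, KLF4 and KLF5 stayed at 942 or more throughout, and GRHL2, OVOL1, OVOL2 and EHF did not exceed 14 in any library.

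Among the tested factors, 3 were lower and 1 was higher after 3 days of TGFβ than in SB, with KLF5 not past the threshold. Over all tested genes 14.0% were lower and 14.9% were higher in this comparison. After 7 days of TGFβ all 5 were lower than in SB, against 26.9% of all tested genes that were lower and 27.7% that were higher. From 3 to 7 days of TGFβ, 3 were lower and 2 did not pass, beside 16.2% of all tested genes that were lower and 17.0% that were higher. The median log2 fold change of the 5 was -0.96 at 3 days, -1.76 at 7 days and -0.59 between the times, beside medians of all tested genes of -0.02, 0.00 and 0.02. Both comparisons with SB use the same SB libraries and are not independent of each other. Without SB replicate 1 the counts were 3 lower and 2 higher at 3 days and 4 lower at 7 days, and without SB replicate 2 they were 3 lower and none higher at 3 days and 5 lower at 7 days.

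**Figure D2:**
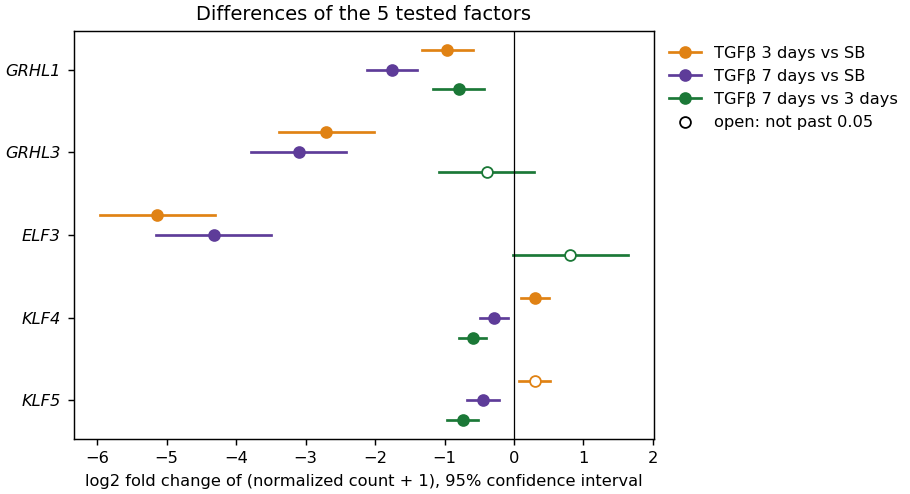
Log2 fold change of the normalized count plus 1 with its 95% confidence interval for the 5 tested genes in the 3 comparisons, with filled points past an adjusted p of 0.05. ELF3 and GRHL3 lie farthest below 0 against SB (-5.14 and -2.70 at 3 days), GRHL1 lies lower at 7 than at 3 days, and KLF4 lies above 0 at 3 days and below it at 7 days.

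The stretches of DNA just before the start sites of 4 of these genes are shown because the genes differ in both their response and the make-up of these stretches: GRHL3, ELF3 and GRHL1, which were lower in TGFβ at both times, and KLF4, which was higher at 3 days and lower at 7 days. Each is the 150 bases before the annotated start, 5′ to 3′ on the gene's strand, from RefSeq on GRCh38.p14. Capitals mark matches, on either strand, to the E-box CACCTG bound by ZEB and SNAIL proteins, the CACCC box CCACCC, the GC box GGGCGG and the TATA box TATAAA.
GRHL3, chr1:24319207-24319356, plus strand: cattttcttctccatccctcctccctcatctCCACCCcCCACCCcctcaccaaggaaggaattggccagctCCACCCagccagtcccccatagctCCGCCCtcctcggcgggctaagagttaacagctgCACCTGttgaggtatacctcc
ELF3, chr1:202010437-202010586, plus strand: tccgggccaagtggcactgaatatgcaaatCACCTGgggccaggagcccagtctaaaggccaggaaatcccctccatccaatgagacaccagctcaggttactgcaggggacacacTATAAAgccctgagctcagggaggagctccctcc
GRHL1, chr2:9951543-9951692, plus strand: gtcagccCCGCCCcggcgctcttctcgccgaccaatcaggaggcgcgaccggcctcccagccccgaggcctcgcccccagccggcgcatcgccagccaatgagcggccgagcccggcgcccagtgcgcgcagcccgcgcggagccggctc
KLF4, chr9:107489770-107489919, minus strand: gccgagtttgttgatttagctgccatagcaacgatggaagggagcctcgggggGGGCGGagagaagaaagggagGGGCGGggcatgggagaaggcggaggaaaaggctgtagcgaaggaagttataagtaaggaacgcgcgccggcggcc

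These letters were searched in the 250 bases before each start of GRHL1, GRHL3, ELF3, EHF, KLF4 and KLF5 and of all 34943 promoters in the RefSeq table. No entry was found there for OVOL1 or OVOL2, and GRHL2 was left out of the search. The E-box CACCTG lay 21 bases before the first of 2 GRHL3 starts and 120 bases before the ELF3 start, and was not in the windows of GRHL1, KLF4, KLF5 or EHF. It was in 17.5% of all promoters, so that a match by itself is common. The CACCC box, in 31.3% of all promoters, occurred 3 times before the first GRHL3 start, once before the second and 3 times before one EHF start. The GC box, in 42.5% of all promoters, occurred 3 times for GRHL1, 4 times for KLF4, 2 times for the second KLF5 start and once for the first GRHL3 start. The TATA box, in 10.8% of all promoters, lay 34 bases before the ELF3 start and 194 bases before the first KLF5 start. The 8 letters of the grainyhead consensus, AACCGGTT, were in none of these windows and in 0.114% of all promoters.

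The windows also differed in CpG content, for which the median of all promoters was 11 CpG dinucleotides per 250 bases with quartiles of 3 and 23. GRHL1 had 45, KLF4 25 and the second KLF5 start 27, above the upper quartile. ELF3 had 4, the GRHL3 starts 3 and 10, the EHF starts 4 and 2 and the first KLF5 start 3, all below the median. The tested genes with the largest fold changes against SB, ELF3 and GRHL3, thus had few CpG dinucleotides before their starts, but GRHL1 was also lower with TGFβ and had the most. These are descriptions of 6 genes and no binding or methylation was measured here.

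ELF3 (ENSG00000163435.16_9, chr1:201977073-201986311 on GRCh37, plus strand, 9 exons) encodes an ETS factor of differentiated epithelium and changed the most of the 5 tested genes against SB. It had 1359 and 4388 normalized counts in the SB libraries, 66 and 71 after 3 days of TGFβ and 124 and 118 after 7 days. The groups did not overlap, and the lower SB library was still more than 10 times above each TGFβ library. By limma, which estimates the spread of each gene with help from all genes, the log2 fold change against SB was -5.14 at 3 days (SE 0.38, 95% confidence interval -5.96 to -4.31, adjusted p = 1.2e-06). At 7 days it was -4.32 (SE 0.38, interval -5.15 to -3.50, adjusted p = 2.2e-06). The size depended on the SB library used: it was -4.29 at 3 days without SB replicate 2 and -5.98 without SB replicate 1, and at 7 days -3.48 and -5.17, with the call kept in each case.

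Between 3 and 7 days of TGFβ, ELF3 was higher by 0.81 on the log2 scale (interval -0.01 to 1.64), with the 7-day libraries both above the 3-day libraries but the test not past the threshold (adjusted p = 0.119). This call turned on the SB spread, which enters the shared estimate of error: the adjusted p was 0.0022 without SB replicate 1, 0.0029 without SB replicate 2 and 0.0061 with only the 4 TGFβ libraries, in a range of 0.0022 to 0.359 over all alternatives. At 7 days ELF3 was at 39.0 normalized counts per kilobase, against 926 in SB. In RNA from whole cultures, fewer cells expressing a gene and less of its RNA per cell cannot be told apart, here or for the other genes.

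GRHL3 (ENSG00000158055.17_7, chr1:24526048-24690972 on GRCh37, plus strand, 16 exons in the canonical transcript) encodes the grainyhead factor known for its part in the skin barrier and in neural tube closure. It had 99 and 112 normalized counts in SB, 13 and 18 after 3 days of TGFβ and 13 and 10 after 7 days. Both TGFβ groups lay far below SB, and the 3-day and 7-day libraries met at 13. The log2 fold change against SB was -2.70 at 3 days (SE 0.31, interval -3.39 to -2.02, adjusted p = 4.8e-05). At 7 days it was -3.10 (SE 0.31, interval -3.78 to -2.42, adjusted p = 7.2e-06). Between the times the difference was -0.39 (interval -1.08 to 0.29, adjusted p = 0.357), so that a further change from 3 to 7 days was not detectable at these counts. The annotated gene overlaps STPG1 on the opposite strand, and the kit does not mark the strand, so that reads in the overlap cannot be told apart. STPG1 itself had a mean of 752 normalized counts and log2 fold changes of 0.07 at 3 days and -0.28 at 7 days, neither past the threshold.

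GRHL1 (ENSG00000134317.18_6, chr2:10091822-10142405 on GRCh37, plus strand, 16 exons), which regulates desmosomal genes in epidermis, was the most abundant grainyhead factor in these cells. It had 276 and 304 normalized counts in SB, 151 and 146 after 3 days of TGFβ and 82 and 88 after 7 days. The 3 groups did not overlap: the 3-day TGFβ libraries lay below SB, and the 7-day libraries below the 3-day ones. The log2 fold change against SB was -0.96 at 3 days (SE 0.17, interval -1.32 to -0.60, adjusted p = 0.00106). At 7 days it was -1.76 (SE 0.17, interval -2.12 to -1.39, adjusted p = 4.4e-06). The difference between 7 and 3 days was -0.80 (SE 0.17, interval -1.16 to -0.43, adjusted p = 0.00397). GRHL1 was thus lower at 7 than at 3 days, while GRHL3 was low already at 3 days with no further step that passed the test. The interval of GRHL3 between the times (-1.08 to 0.29) includes the value of GRHL1. Whether the 2 courses differ from each other was not tested.

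GRHL2, the grainyhead factor best known for maintaining E-cadherin in lung and breast epithelium, was close to absent. Its normalized counts were 0 and 5 in SB, 1 and 0 after 3 days of TGFβ and 1 and 3 after 7 days. The groups overlapped. The ratio of the summed SB counts to those at 3 days was 5, with an exact 95% interval of 0.559 to 236 for counting error only. To those at 7 days it was 1.25, with an interval of 0.269 to 6.30. GRHL2 was also low with the receptor blocked, so that a loss on TGFβ treatment was not detectable at this depth.

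OVOL2 (ENSG00000125850.11_9, chr20:17937623-18039832 on GRCh37, minus strand) represses ZEB1 and opposes TGFβ signalling in other epithelial cells. It had 9 and 9 normalized counts in SB, 0 and 0 after 3 days of TGFβ and 1 and 0 after 7 days. The SB libraries lay above all 4 TGFβ libraries, at counts under the filter. Taking a normalized count as a read, the SB sum of 18 was 6 times a floor of 3 counts set for the 3-day group. This figure leaves out the counting error of the SB sum. Against the sum of 1 at 7 days the ratio was 18, with an exact 95% interval of 2.84 to 750 (counting error only). When no filter was applied, OVOL2 was past the threshold in both comparisons with SB in limma (adjusted p of 0.0081 and 0.0056 after 3 and 7 days). Its annotated span overlaps SNX5 and MGME1, which had means of 5411 and 2136 normalized counts, and reads in the overlap cannot be told apart. OVOL1 had at most 1 normalized count in any library, and the further family member OVOL3 had 0 in all 6.

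EHF (ENSG00000135373.13_8, chr11:34642640-34684835 on GRCh37, plus strand) belongs to the same epithelium-specific group of ETS factors as ELF3 and ELF5. It had 3 and 14 normalized counts in SB, 2 and 5 after 3 days of TGFβ and 1 and 6 after 7 days. The groups overlapped. The SB sum of 17 was 2.43 times the sum of 7 in each TGFβ group, with an exact 95% interval of 0.957 to 6.93 for counting error only, so that a difference was not shown in either direction. As with ELF3, the higher SB value was in replicate 2.

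KLF4 (ENSG00000136826.15_15, chr9:110247133-110252763 on GRCh37, minus strand, 5 exons), a factor of epithelial differentiation that is also used in reprogramming to pluripotency, kept high counts in all groups. It had 2501 and 2323 normalized counts in SB, 2946 and 3003 after 3 days of TGFβ and 2046 and 1896 after 7 days. The 3 groups did not overlap: the 3-day libraries were highest and the 7-day libraries lowest. The log2 fold change was 0.30 at 3 days against SB (SE 0.09, interval 0.10 to 0.50, adjusted p = 0.0263), -0.29 at 7 days against SB (interval -0.49 to -0.09, adjusted p = 0.0171) and -0.59 at 7 against 3 days (interval -0.79 to -0.40, adjusted p = 6.9e-04). The rise at 3 days was no longer past the threshold without SB replicate 2 (adjusted p = 0.093), without TGFβ 3-day replicate 1 (0.104) or replicate 2 (0.120), or with a replicate block (0.0501), and the lower level at 7 days was not without SB replicate 1 (0.0723) or 7-day replicate 2 (0.155). Over all alternatives the adjusted p lay between 0.0244 and 0.120 for the earlier time and between 0.0066 and 0.155 for the later one. The adjusted p of the step from 3 to 7 days stayed past the threshold in every alternative run.

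KLF5 (ENSG00000102554.14_12, chr13:73629114-73651679 on GRCh37, plus strand, 4 exons), which promotes proliferation of basal and progenitor cells of epithelia, followed a like course. It had 1355 and 1236 normalized counts in SB, 1673 and 1510 after 3 days of TGFβ and 942 and 961 after 7 days, again with no overlap between groups. The log2 fold change was 0.30 at 3 days against SB (SE 0.10, interval 0.07 to 0.52), just short of the threshold (adjusted p = 0.0504) and past it without SB replicate 1 (0.0425), in a range of 0.0425 to 0.321 over all alternatives. It was -0.44 at 7 days against SB (interval -0.67 to -0.22, adjusted p = 0.00336) and -0.74 at 7 against 3 days (SE 0.10, interval -0.97 to -0.51, adjusted p = 3.9e-04). KLF4 and KLF5 thus differed from ELF3, GRHL1 and GRHL3 in the direction of their values at 3 days, and their differences from SB stayed within 0.44 on the log2 scale.

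The relatives of these factors, a list of 24 family members of which 18 were tested, were more often higher than lower with TGFβ among those past the threshold. At 3 days 7 were higher and 1 was lower than in SB, and at 7 days 8 were higher and 3 lower, with medians of 0.38 and 0.28 on the log2 scale beside -0.02 and 0.00 for all tested genes. Of all tested genes 14.9% were higher and 14.0% lower at 3 days, and 27.7% higher and 26.9% lower at 7 days, and whether the list differs from these shares was not tested. One of the 8 at 7 days, ELF5, reached the filter only through its 7-day libraries. Without SB replicate 1 or 2 the counts were 7 higher and 1 or 0 lower at 3 days, and 9 or 8 higher and 3 lower at 7 days.

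**Figure D3:**
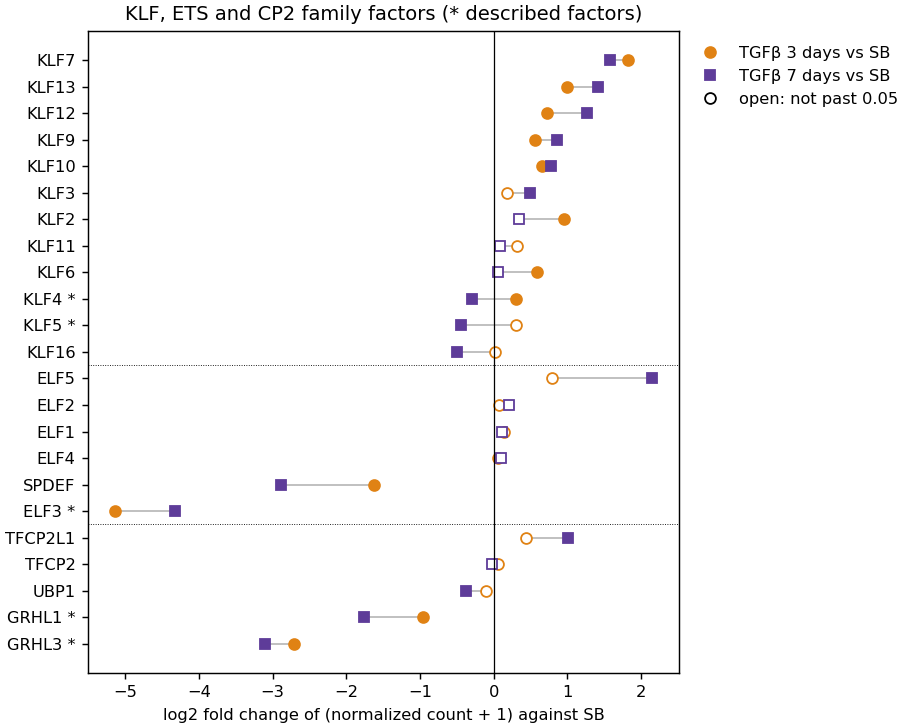
Log2 fold change against SB at 3 days (circles) and 7 days (squares) of the tested KLF factors (top block), ETS factors (middle block) and grainyhead and CP2 factors (bottom block), with asterisks for GRHL1, GRHL3, ELF3, KLF4 and KLF5 and open symbols where the adjusted p was not past 0.05. Most KLF factors lie above 0, led by KLF7, whereas ELF3, SPDEF, GRHL3 and GRHL1 lie lowest in their families.

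Among the Krüppel-like factors, KLF7, known from neuronal development, had 935 and 938 normalized counts in SB, 3504 and 3115 after 3 days of TGFβ and 2772 and 2803 after 7 days. Its log2 fold changes of 1.82 and 1.57 against SB passed the test (adjusted p = 6.2e-08 and 8.2e-08), with no overlap between SB and TGFβ libraries. KLF13 rose by 1.0 and 1.42, KLF12 by 0.73 and 1.27, KLF9 by 0.56 and 0.85, and KLF10, an early TGFβ response gene that represses transcription, by 0.65 and 0.77. KLF16 went the other way at 7 days, with log2 fold changes against SB of 0.01 and -0.49, the second past the threshold by limma (adjusted p = 0.00635). KLF6 had a course like that of KLF4, with 8397 and 7101 normalized counts in SB, 11722 and 11435 at 3 days and 7758 and 8281 at 7 days. It was higher by 0.58 at 3 days than in SB (adjusted p = 5.6e-04) and fell by 0.53 from 3 to 7 days (adjusted p = 0.00152).

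Among the ETS factors, SPDEF, which drives mucous cell differentiation in airways, was the relative that moved in the direction of ELF3. It had 38 and 58 normalized counts in SB, 8 and 26 after 3 days of TGFβ and 6 and 5 after 7 days, with log2 fold changes against SB of -1.62 and -2.89 (adjusted p = 0.0282 and 4.1e-04). The call at 3 days was lost without SB replicate 2 (adjusted p = 0.146) or TGFβ 3-day replicate 1 (0.276), with log2 fold changes between -2.41 and -0.83 when 1 library was left out, while that at 7 days was kept. ELF5, a factor of mammary alveolar cells, was near the filter with 3 and 4 normalized counts in SB, 9 and 5 at 3 days and 13 and 27 at 7 days, and differed from SB by 2.15 at 7 days (adjusted p = 0.00373). Since it reached the filter through its 7-day libraries, this difference was favoured by the filter. ELF1, ELF2 and ELF4, which are widely expressed, were not past the threshold in any comparison and had between 1417 and 4581 normalized counts in each library. In the CP2 branch of the grainyhead family, TFCP2L1 was higher by 1.01 at 7 days than in SB (adjusted p = 9.0e-04) and UBP1 fell by 0.38 (adjusted p = 0.00197), while TFCP2 was past the threshold in no comparison.

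Several of these relatives are also neighbours on the chromosome. On GRCh37 the tested gene next to GRHL1 on its right, by start position, was KLF11, 91154 bases away; the tested gene before EHF was ELF5, 142302 bases away; and the one after KLF5 was KLF12, 631112 bases away. In each of these 3 pairs the values took different courses: KLF11 was not past the threshold at either time (0.32 and 0.09 on the log2 scale), EHF had no higher counts at 7 days than in SB where ELF5 did, and KLF12 rose where KLF5 was lower at 7 days. RNPEP, the tested gene before ELF3, had log2 fold changes against SB of -0.14 and -0.13 at the 2 times, neither past the threshold, beside -5.14 and -4.32 for ELF3. IFNLR1, the tested gene before GRHL3 at 45390 bases, was lower than in SB as GRHL3 was, with log2 fold changes of -0.55 and -0.54 (adjusted p = 0.0149 and 0.00793). Its call at 3 days was lost without SB replicate 2 (adjusted p = 0.0622) or TGFβ 3-day replicate 1 (0.149), and that at 7 days without TGFβ 7-day replicate 2 (0.0978). ELF3-AS1 overlaps ELF3 on the opposite strand and was not analysed here.

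The genes whose course was most like that of a factor were found by the distance between their pairs of log2 differences (3 days minus SB, and 7 minus 3 days), over 11388 genes with a mean of at least 100. Nearest to GRHL1 were ZDHHC23 (-0.91 at 3 days against SB and -0.81 from 3 to 7 days), MTCL1 (-0.94 and -0.75) and SAPCD2 (-0.93 and -0.75). Nearest to GRHL3 was FOXA2, which encodes an endoderm and airway factor (-2.69 and -0.27, at a distance of 0.128), before FGFBP1 (-2.93 and -0.45) and SLC27A2 (-2.56 and -0.63). For ELF3 no gene lay within 0.9: the nearest were DMBT1 (-4.52 and 0.14, at a distance of 0.913), CACNA1E (-5.64 and 0.05) and CEMIP (-4.41 and 0.25). At 3 days the value of DMBT1 was -2.23 without one SB library and -6.81 without the other, and that of CEMIP -3.81 and -5.01. These likenesses rest on 6 libraries and on SB values that the genes share.

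Junction and other epithelial genes that grainyhead, OVOL and ELF factors are known to regulate or accompany were examined as a list of 20, of which 16 were tested. At 3 days 10 were lower and 1 was higher than in SB, and at 7 days 9 were lower and 4 higher, with medians of -0.61 and -1.15. These counts stand beside the 14.0% lower and 14.9% higher of all tested genes at 3 days and the 26.9% and 27.7% at 7 days, and the share of higher genes at 7 days is near that background. Without SB replicate 2, 7 were lower and 2 higher at 3 days, and without SB replicate 1, 11 were lower and 1 higher at 3 days and 10 were lower and 3 higher at 7 days. CDH1, encoding E-cadherin, had 371 and 635 normalized counts in SB, 28 and 24 after 3 days of TGFβ and 10 and 9 after 7 days. Its log2 fold changes against SB were -4.18 and -5.54 (adjusted p = 7.1e-07 and 2.8e-08), and the difference between these times was -1.36 (adjusted p = 0.00421).

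ESRP2, an epithelial splicing factor, had 797 and 832 normalized counts in SB, 386 and 447 at 3 days and 149 and 121 at 7 days. Its log2 fold changes against SB were -0.97 and -2.59, and it changed by -1.62 from 3 to 7 days. Like GRHL1, it was thus lower than SB at 3 days and lower again at 7 days. ESRP1 had at most 8 normalized counts in any library. Further genes were lower than in SB at both times: the log2 fold changes at 3 and 7 days were -1.30 and -2.63 for LSR, a protein of tricellular junctions, -0.61 and -1.62 for EPCAM, -2.16 and -3.03 for the tight junction gene CLDN3, and -1.44 at each time for the receptor gene ERBB3. CLDN3 reached the filter through its SB libraries (54 and 50, against 5 to 13 with TGFβ), so that its difference was favoured by the filter. For OCLN, which encodes occludin, the value at 7 days was -2.51.

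Not all junction genes were lower. JUP, which encodes plakoglobin of desmosomes and adherens junctions, had 1271 and 1803 normalized counts in SB, 3186 and 4297 at 3 days and 9451 and 7419 at 7 days, a rise of 1.29 and then 2.47 on the log2 scale (adjusted p = 1.7e-04 and 3.7e-07). CLDN4 was higher than in SB by 0.56 and ST14, a membrane protease of epithelia, by 0.92 at 7 days (adjusted p = 0.0022 and 0.00283). Of the list, RAB25, AP1M2, PRSS8 and ESRP1 had means under 10 and were not tested, as were GRHL2, OVOL1, OVOL2 and EHF.

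**Figure D4:**
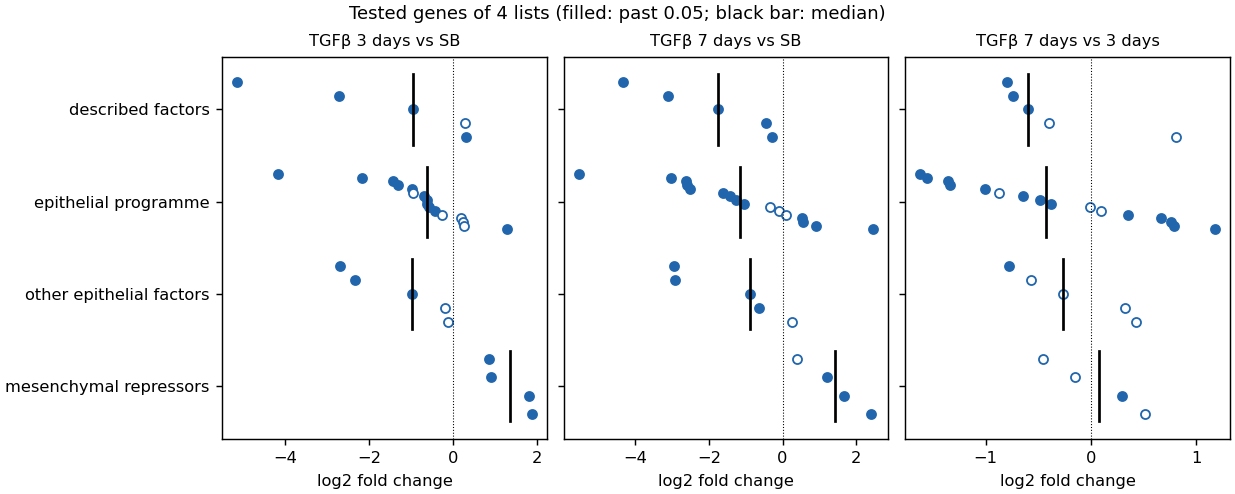
Log2 fold changes in the 3 comparisons of the tested genes among the factors described here, the epithelial programme, other epithelial factors and mesenchymal repressors, one point per gene ordered by value, filled where past an adjusted p of 0.05 and with a black bar at the list's median. The medians of the described factors (-0.96 and -1.76 against SB) and of the epithelial programme (-0.61 and -1.15) lie below 0, and that of the mesenchymal repressors lies above 0 (1.36 and 1.44).

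The repressors that oppose grainyhead and OVOL factors in other epithelial cells moved in the opposite direction. Of 7 such genes listed, 5 were present and 4 were tested. Of these, 4 were higher at 3 days and 3 at 7 days than in SB, beside 14.9% and 27.7% of all tested genes. Whether the list differs from these shares was not tested. TWIST2 was not past the threshold at 7 days (0.40 on the log2 scale, adjusted p = 0.183 by limma). Without SB replicate 2 the count at 3 days was 3. ZEB1, the target of OVOL repression, had 2702 and 2567 normalized counts in SB, 5073 and 4770 at 3 days and 5898 and 6223 at 7 days, a rise of 0.90 and 1.20 on the log2 scale (adjusted p = 8.9e-06 and 3.3e-07). ZEB1 thus had at least 2567 normalized counts in every library, SB included. SNAI1 rose by 1.88 and 2.40 and SNAI2 by 1.82 and 1.67.

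Other transcription factors of epithelial and glandular cells formed a list of 9, of which 5 were tested. Of all tested genes 14.0% were lower and 14.9% higher than in SB at 3 days, and 26.9% and 27.7% at 7 days. Of the list, 3 were lower and none higher at 3 days, and 4 were lower and none higher at 7 days. The counts were the same without either SB library. FOXA2 had 490 and 642 normalized counts in SB, 75 and 99 at 3 days and 68 and 75 at 7 days, with log2 fold changes of -2.69 and -2.96 (adjusted p = 1.4e-06 and 2.6e-07). TFAP2A, a factor of surface ectoderm and glandular epithelium, changed by -2.34 and -2.91, and FOXA1 by -0.97 and -0.65. GATA6 had no difference past the threshold at 3 days, changed by -0.88 at 7 days against SB and by -0.78 from 3 to 7 days (adjusted p = 0.00362). TP63, TFAP2C and ZNF750 were under the filter, with TP63 at most 8 normalized counts.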

How the data were processed

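RNA of H2087-LCC cells was sequenced in 6 libraries, 2 per group. Per the study's methods, polyadenylated RNA was made into libraries with a kit that does not mark the strand, paired reads were checked with FastQC, aligned to hg19 with STAR and counted per gene with HTSeq at default settings, and counts were normalized by library size with DESeq2. The deposited values are these normalized counts rounded to whole numbers, so they were treated as a score and not as raw counts. The annotation release used for counting is not given in the sources used here. Gene positions came from GENCODE lifted to GRCh37 and promoter stretches from RefSeq on GRCh38.p14.

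Values were tested as log2(value + 1) with limma 3.58.1 (R 4.3.3, trend), in 1 fit of all 6 libraries with 3 residual degrees of freedom, on genes with a mean of at least 10, with Benjamini-Hochberg adjustment over 14395 genes at 0.05. Fold changes of low genes are understated on this scale. The test was checked on simulated data with the same spread in all groups. That check does not cover the wider spread between the SB libraries. An exact permutation test of 2 against 2 libraries cannot go below p = 0.333. Alternatives were other pseudocounts, filters and scalings, no trend, fewer libraries and a replicate block. Genes named are the members, the genes of fixed lists (family relatives, epithelial programme, mesenchymal repressors, other epithelial factors, TGFβ targets, epithelial, lung and other cell type markers), the 3 genes nearest in course to each member past the threshold against SB with a log2 fold change beyond 1, and the tested neighbours on the chromosome. The members and lists were chosen with earlier results of these data known. PECAM1 and SFTPB come from the marker lists. A few genes of these lists are not reported here.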

Additional observations from a re-analysis of the deposited data

Results flagged for a closer look

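The effects of 3 and 7 days of TGFβ differed in 22 of the named genes, listed below, by the test of 7 against 3 days. KLF16 (-0.50) and the lung marker SCGB3A2 (-3.79) also passed this test and are not in the count. Of all tested genes, 16.2% were lower and 17.0% higher in this comparison. Whether the named genes differ from these shares was not tested. The genes named for a course like that of a described factor are not counted, since this difference was used to choose them. Among the described factors, GRHL1 changed by -0.80, KLF4 by -0.59 and KLF5 by -0.74 on the log2 scale. Among relatives, KLF6 changed by -0.53, KLF12 by 0.54, KLF13 by 0.42, KLF9 by 0.29, TFCP2L1 by 0.57 and UBP1 by -0.28. Among epithelial genes, CDH1 changed by -1.36, EPCAM by -1.01, ESRP2 by -1.62, LSR by -1.33, OCLN by -1.56, JUP by 1.18, ST14 by 0.67 and CLDN4 by 0.36. GATA6 changed by -0.78, ZEB1 by 0.30, the lung marker SOX9 by 1.05, CTNNAL1 by -1.42 and MGME1, which overlaps OVOL2, by -0.39. The calls of KLF9, KLF13, ZEB1, TFCP2L1, UBP1, ST14, CLDN4, MGME1, OCLN and KLF12 were each lost when 1 of the TGFβ libraries was left out: with TGFβ 3-day replicate 1 left out for all but KLF12 (adjusted p between 0.0523 and 0.322), and with TGFβ 7-day replicate 2 left out for KLF12 (0.0799). With TGFβ 7-day replicate 1 left out, the calls of KLF9, KLF13, ZEB1, TFCP2L1, UBP1, ST14, CLDN4 and MGME1 were lost too (0.0721 to 0.313). TGFβ 7-day replicate 2 bore on those of KLF9, ZEB1, TFCP2L1, UBP1, ST14, CLDN4 and MGME1 as well (0.0501 to 0.160), and TGFβ 3-day replicate 2 on those of KLF9, ZEB1 and TFCP2L1 (0.128 to 0.168). Searching for single libraries far from the rest needs groups of 4 or more and was not possible with 2 libraries per group.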

How the results depend on the processing

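The number of described factors past the threshold was 4 at 3 days against SB (3 to 5 over the alternatives), 5 at 7 days against SB (4 to 6) and 3 at 7 against 3 days (3 to 4). GRHL1, GRHL3 and ELF3 kept their direction and call against SB in every alternative run that tested them. KLF4 was lost without the limma trend at both times (adjusted p = 0.0806 and 0.0510), and KLF5 at 3 days was past the threshold with a pseudocount of 5 (0.0498), a mean of at least 50 (0.0484) or median-of-ratios scaling (0.0494). ELF3 at 7 against 3 days was past it with a replicate block (0.0138). Over all genes, 4170 were past the threshold at 3 days against SB and 2608 to 3894 with 1 library left out. At 7 against 3 days 4775 were past it, 3042 with no filter, 3122 without the trend and 2294 to 5570 with 1 library left out, the fewest without TGFβ 7-day replicate 2. Beyond these, 2554 were found without TGFβ 7-day replicate 1 and 2800 without TGFβ 3-day replicate 1. Equal library totals moved the split at 3 days against SB from 2149 higher and 2021 lower to 1819 and 2552.

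Same-numbered libraries of 2 groups had deviations that correlated by 0.21 (SB and 3 days), -0.13 (SB and 7 days) and -0.65 (3 and 7 days) over 11389 genes. The shared number thus did not mark a like deviation in all 3 groups. Same-numbered 3-day and 7-day libraries tended to deviate in opposite directions, so that differently numbered ones deviated alike. The source of this pattern was not tested. With a replicate block 3943, 7546 and 4485 genes were past the threshold at 3 days against SB, 7 days against SB and 7 against 3 days, with 3, 5 and 4 of the described factors. With the numbers of the 7-day libraries swapped, a pairing chosen after seeing the data, the counts were 5404, 8763 and 5972. At the counts of GRHL2, OVOL1, OVOL2 and EHF, differences below several-fold were not detectable.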

Other observations

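Some Krüppel-like relatives with means under 10 were not tested but had groups of unequal counts. KLF15, a metabolic regulator, had 11 and 20 normalized counts in SB, 5 and 5 after 3 days of TGFβ and 4 and 4 after 7 days. KLF17 had 0 and 1 in SB, 5 and 3 at 3 days and 20 and 16 at 7 days, and KLF8 had 3 and 5, 5 and 5, and 11 and 10. These genes were picked out after their values were seen. The nearest tested gene after KLF4 by start position, CTNNAL1, which encodes a catenin-like protein and lies 1457716 bases away, had a log2 fold change of -2.17 against SB at 7 days.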
